A study of Mus musculus with 12 samples.

Results

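The genes described here are 4 activators and 2 inhibitors of the basic helix-loop-helix (bHLH) network in CD4 T cells. The activators are Ascl2 and the E proteins Tcf3, Tcf4 and Tcf12, and the inhibitors are Id2 and Id3. All probe sets annotated to these 6 genes were taken, which gave 21 of the 45101 probe sets on the array, and 15 of the 21 reached a log2 signal of 5 on at least 2 of the 12 arrays. All 6 genes had such a probe set and were among the 9893 genes tested. Ascl2 and Tcf3 passed this filter through 6 and 2 arrays only. For Ascl2 these were the Venus-high and Venus-low Tfh arrays, so it was tested only because it was high there.

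The study measured sorted mouse CD4 T cells on Affymetrix arrays, each array holding amplified RNA from cells pooled from several mice. Every pool came from S1pr2V/+ mice, which carry a Venus reporter at 1 S1pr2 allele, and was sorted 10 days after subcutaneous injection of CGG, a protein antigen, in the adjuvant CFA. The design text also speaks of control mice, while the labels of all 12 pools give immunized donors. Venus-high Tfh (3 pools, of 4, 6 and 4 mice) and Venus-low Tfh (3 pools, of 4, 6 and 4 mice) were lymph node CD4+ CXCR5+ PD1-high CD44-high cells, split by the reporter. PD1-intermediate Th (2 pools of 4 mice) were CXCR5+ and CD44-high with less PD1. PD1-low Th (2 pools, of 6 and 4 mice) were CXCR5-low and CD44-high. Naive CD4 T cells (2 pools of 2 mice) were CD44-low CD62L-high cells from the spleen, so this group differs from the others in organ as well as in state. The reporter reads the S1pr2 locus in cells with 1 unmodified S1pr2 allele, and all groups share that genotype.

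E proteins are class I bHLH transcription factors that bind DNA as pairs at E-boxes, and Tcf3 encodes E2A, Tcf4 encodes E2-2 and Tcf12 encodes HEB. Ascl2 is a class II bHLH factor that binds E-boxes as a partner of an E protein and is known for its part in the start of T follicular helper (Tfh) development, where it raises the follicle-homing receptor Cxcr5. Id2 and Id3 pair with E proteins but lack the DNA-binding basic region, so an E protein held by an Id protein cannot bind its site. In these data Tcf3 and Tcf4 are the E protein genes by gene identifier, not the T cell factors Tcf7l1 and Tcf7l2, which were once known by the same short names.

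The promoters of Ascl2, the member with the largest difference between groups, and of both inhibitors are shown because the E-box is the sequence that all 4 activators read. Each sequence is the 250 bases before the RefSeq start site on GRCm38.p6, written 5′ to 3′ on the gene's strand, with every match to the E-box CANNTG in capitals. CANNTG equals its own reverse complement, so matches on both strands coincide. The windows are chr7:142969265-142969514 on the minus strand for Ascl2, chr12:25096093-25096342 on the minus strand for Id2 and chr4:136143572-136143821 on the plus strand for Id3.
Ascl2: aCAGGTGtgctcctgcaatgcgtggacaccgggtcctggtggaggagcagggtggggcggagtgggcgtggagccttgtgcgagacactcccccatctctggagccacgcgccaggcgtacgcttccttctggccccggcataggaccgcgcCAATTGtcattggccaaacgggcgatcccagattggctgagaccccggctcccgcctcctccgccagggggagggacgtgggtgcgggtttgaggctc
Id2: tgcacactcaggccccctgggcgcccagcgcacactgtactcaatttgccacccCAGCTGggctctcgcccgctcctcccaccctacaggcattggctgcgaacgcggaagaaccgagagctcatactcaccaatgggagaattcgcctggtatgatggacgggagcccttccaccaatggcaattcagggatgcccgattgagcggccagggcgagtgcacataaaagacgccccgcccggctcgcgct
Id3: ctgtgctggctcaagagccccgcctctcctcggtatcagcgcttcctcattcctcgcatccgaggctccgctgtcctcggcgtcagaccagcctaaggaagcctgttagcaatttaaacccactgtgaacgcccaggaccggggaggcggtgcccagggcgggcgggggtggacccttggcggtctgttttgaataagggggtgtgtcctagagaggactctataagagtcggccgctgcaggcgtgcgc
The Ascl2 window held CAGGTG starting at position -249 and CAATTG at -98 from the start site, the Id2 window held CAGCTG at -196, and the Id3 window held no match in these 250 bases. A CANNTG match occurred in 66.2% of all 32851 RefSeq promoter windows of this length, CAGCTG in 13% and CACCTG or its reverse complement CAGGTG in 17.2%. These matches are a description of the letters, and no binding was measured.

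The deposited values are log2 signals from GCRMA, whose steps include adjusting each array's background from probe sequence and summarising the probes of a probe set. The arrays fell into 3 sets by their quantiles, with a 75% quantile of 8.50 to 8.55 in set 1 (3 arrays), 8.68 to 8.76 in set 2 (4 arrays) and 9.39 to 9.42 in set 3 (5 arrays). Pairs of arrays of the same set shared between 362 and 4942 exactly equal values, and pairs of different sets shared at most 1. The labels do not name these sets, and which arrays were normalized together is not given. Values of different sets may therefore not share a scale. Each Tfh group had 1 array in each set, with replicates 1, 2 and 3 of both groups in sets 1, 2 and 3. Both PD1-intermediate arrays were in set 3, the PD1-low arrays were in sets 2 and 3, and the naive arrays were in sets 1 and 2. Differences are therefore given from the fit without a term for the sets, and beside it from the fit with that term and from arrays of 1 set. All 6 CD4 T cell markers were bright on every array, with the lowest value, of Cd28, at 11.50. Nothing in the labels says whether mice were shared between pools, so p-values measure the spread between these arrays, which may be technical in part. Without the set term that spread includes the shifts between array sets. Over all genes, the median SE of Venus-high minus Venus-low Tfh was 0.40 without the term and 0.15 with it.

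Ascl2 had the widest range of group means among the 6 members, 9.95 log2 units. Its brighter probe set, 1432018_at, read 12.23, 11.91 and 12.68 in the Venus-high Tfh arrays. It read 9.47, 7.83 and 10.58 in the Venus-low Tfh arrays. The PD1-intermediate arrays read 2.95 and 2.37, the PD1-low arrays 2.35 and 2.30, and the naive arrays 2.48 and 2.36. All 3 Venus-high values lay above all 3 Venus-low values, and the 6 arrays outside the PD1-high gate lay below log2 5, a level treated here as background.

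A different Ascl2 probe set, 1460514_s_at, also placed Venus-high Tfh above Venus-low Tfh and both above the rest. It read 10.99, 10.85 and 11.50 in Venus-high Tfh, 7.72, 6.65 and 8.87 in Venus-low Tfh, and between 2.09 and 3.07 on the 6 other arrays. The third Ascl2 probe set, 1422396_s_at, stayed below log2 5 everywhere, with a maximum of 4.22, and so measured nothing above background in cells where both others were bright. The suffix of the 2 dimmer probe sets marks probes that may be shared with another transcript. In RNA from bulk samples, fewer cells that express a gene and less RNA per cell cannot be told apart, which applies to the intermediate Ascl2 level of Venus-low Tfh.

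**Figure D1:**
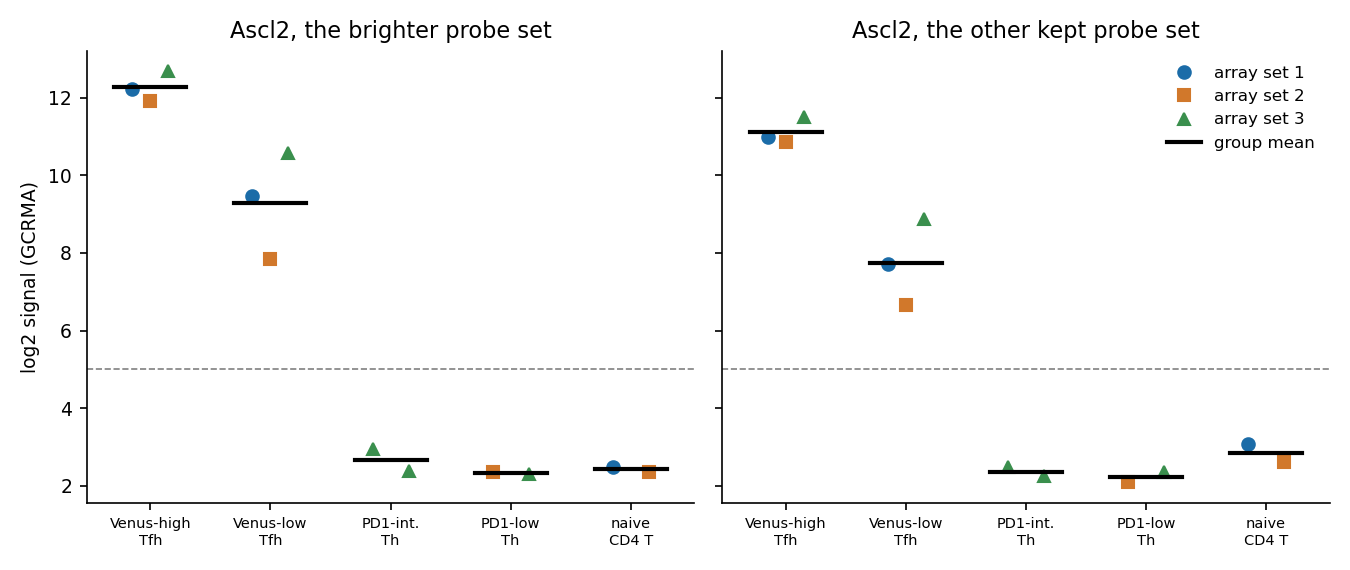
Log2 GCRMA signal of the 2 kept Ascl2 probe sets on each of the 12 arrays by sorted group, with marker shape and colour for the array set, a bar for the group mean and a dashed line at log2 5. In both panels the 3 Venus-high Tfh arrays lie above the 3 Venus-low Tfh arrays, and the 6 arrays of the other groups lie below the dashed line.

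Between Venus-high and Venus-low Tfh, Ascl2 averaged 12.27 ± 0.38 and 9.30 ± 1.38 (SD, n = 3 each), a difference of 2.98 ± 0.59 log2 units (SE), or 7.87-fold. This missed the threshold narrowly in the fit of all arrays without a block or set term (limma, adjusted p = 0.0543). The labels of the pools state no pairing between the 2 Tfh groups. In the 6 Tfh arrays the replicate number is also the array set, and with it as a block the same difference passed (limma, adjusted p = 0.0360). As a block over all 12 arrays it also passed (limma, adjusted p = 0.0170). There the replicate number joins arrays of different sets, so that block is neither a pairing nor the array set. With the array set as a term the adjusted p was 0.00932 (limma). The difference was 2.75 within set 1, 4.08 within set 2 and 2.10 within set 3, positive in 3 of 3 pairs. With every probe set tested on its own, 1432018_at, the one used above, differed by 2.98 ± 0.60 and did not pass (limma, adjusted p = 0.0936), and 1460514_s_at differed by 3.36 ± 0.50 and did (limma, adjusted p = 0.0277).

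Across all 9893 genes, 1.31% passed in this comparison without the set term and 16.9% with it. None of the 6 members passed without it (limma, with Ascl2 alone at an unadjusted p under 0.05) and 1 of 6, Ascl2, passed with it. With the replicate block on the 6 Tfh arrays, where 10.1% of genes passed, 2 of 6 members did, Ascl2 and Tcf4. In the block on all 12 arrays, where 2.65% passed, Ascl2 alone did. A count of 1 or 2 of 6 is too small to be set apart from these shares.

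Against PD1-intermediate Th, mean Ascl2 in Venus-low Tfh was at least 19.6-fold higher on the brighter probe set, the bound set by log2 5 in the dimmer group. On 1460514_s_at the same bound was lower, 6.725-fold. Fitted and within-set differences against a group below log2 5 are taken against background readings and are not bounds. The fitted difference was 6.63 ± 0.66 log2 units (limma, adjusted p = 0.00921), from 9.30 ± 1.38 (SD, n = 3) in Venus-low Tfh and 2.66 ± 0.41 (SD, n = 2) in PD1-intermediate Th. It was 7.92 in set 3, the one set holding both groups, and 7.19 with the set term (limma, adjusted p = 0.00807). Ascl2 was the 1 of 6 members that passed, where 0.566% of all genes passed without the set term and 6.38% with it. The call depended on single arrays: the adjusted p was 0.0544 without PD1-intermediate replicate 1, 0.156 without its replicate 2, and 0.197 from the 5 arrays of these groups alone (limma), with differences of 6.92, 6.34 and 6.63.

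Venus-high Tfh exceeded both outer groups in mean Ascl2 by at least 154.6-fold on the brighter probe set and at least 69.25-fold on 1460514_s_at. The fitted differences were 9.95 ± 0.66 against PD1-low Th (limma, adjusted p = 3.11e-05) and 9.85 ± 0.66 against naive cells (limma, adjusted p = 2.64e-05). These comparisons share the Venus-high arrays. They passed in all 26 alternatives run for each. PD1-intermediate against PD1-low Th and PD1-low Th against naive cells gave no fold, because Ascl2 was below log2 5 on all arrays of these groups. Ascl2 was the only member to pass the F test over the 5 groups without a set term (limma, adjusted p = 4.09e-05), a test passed by 14% of all genes. Ascl2 passed the filter only through the Tfh arrays. Its F test and its calls against groups at background were thus partly fixed by the filter and give no separate support.

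The genes whose arrays followed Ascl2 most closely over the 12 arrays were Nrbp2, Gal, Pgam2, Dusp16 and Susd2, with Pearson r of 0.995, 0.984, 0.980, 0.979 and 0.977. The values are a description, since the arrays share groups and sets. Nrbp2, a nuclear receptor binding protein, averaged 11.81 in Venus-high Tfh, 9.76 in Venus-low Tfh, 3.51 in PD1-intermediate Th, 2.42 in PD1-low Th and 3.21 in naive cells. Gal, which encodes the neuropeptide galanin, averaged 13.10, 8.77, 2.14, 2.39 and 3.26 in the same groups. Dusp16, a phosphatase of MAP kinases, was above log2 5 in every group mean, at 10.57 in Venus-high Tfh and 5.17 in naive cells. Of these, Dusp16 had the smallest step between the Tfh groups, 1.54 log2 units, and Gal the largest, 4.33.

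**Figure D2:**
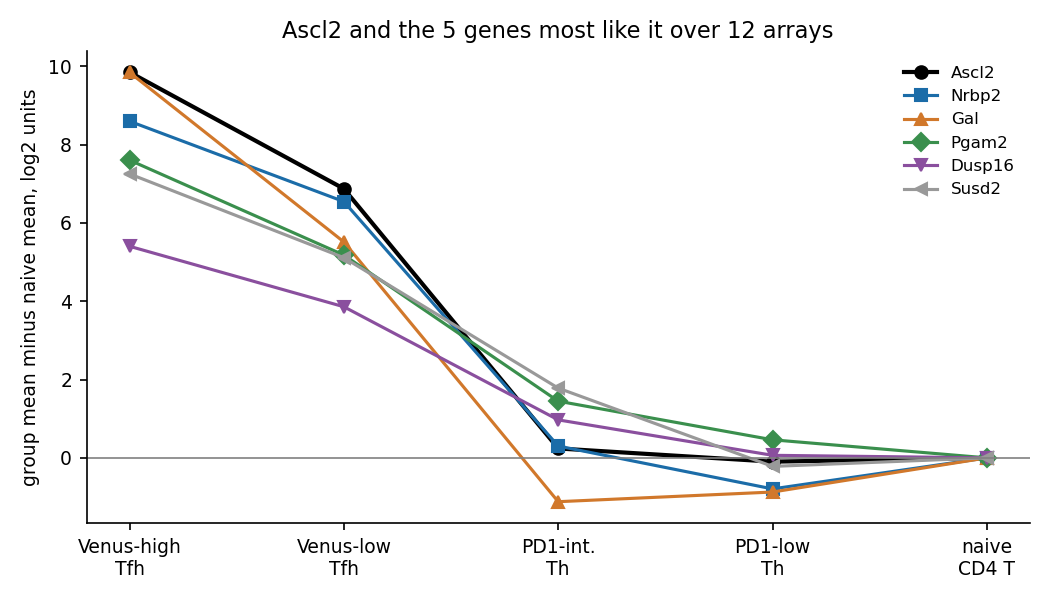
Group mean log2 signal minus the naive group mean for Ascl2 (black) and the 5 genes with the highest Pearson r with it over 12 arrays, in the order of the sort gates. All 6 lines are highest in Venus-high Tfh and lower in Venus-low Tfh, and Dusp16 shows a smaller drop than Ascl2.

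Tcf4, which encodes the E protein E2-2, was the E protein with the widest spread of group means. Its main probe set, 1416723_at, read 9.21, 9.05 and 10.34 in Venus-high Tfh and 8.24, 8.34 and 9.75 in Venus-low Tfh. It read 9.41 and 8.84 in PD1-intermediate Th, 7.67 and 7.49 in PD1-low Th, and 7.99 and 7.20 in naive cells. On this probe set the 8 arrays of the CXCR5+ gates all lay above the 4 arrays of the other groups. Among the CXCR5+ groups the ranges overlapped.

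Venus-high against Venus-low Tfh, Tcf4 differed by 0.75 ± 0.50 log2 units, 1.69-fold, with a 95% interval of -0.37 to 1.88 (limma, adjusted p = 0.882). Within sets 1, 2 and 3 the differences were 0.97, 0.71 and 0.59, positive in 3 of 3 pairs. With the replicate number as a block in the 6 Tfh arrays it passed (limma, adjusted p = 0.0395), in the block on all 12 arrays it did not (limma, adjusted p = 0.123), and with the set term it did not (limma, adjusted p = 0.206). Venus-low Tfh against PD1-intermediate Th differed by -0.35 ± 0.55 (limma, adjusted p = 0.721), and by 0.62 within set 3.

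Tcf4 averaged 9.53 ± 0.70 in Venus-high Tfh (SD, n = 3), against 7.58 ± 0.13 in PD1-low Th and 7.59 ± 0.56 in naive cells (SD, n = 2 each). Against PD1-low Th the difference was 1.95 ± 0.55 (limma, adjusted p = 0.0576), and against naive cells 1.94 ± 0.55 (limma, adjusted p = 0.0513), so neither passed without the set term. With the set term both passed, at 2.08 ± 0.42 (limma, adjusted p = 0.00873) and 1.64 ± 0.42 (limma, adjusted p = 0.0197). The differences from PD1-low Th were 1.38 and 2.85 within sets 2 and 3, and those from naive cells 1.22 and 1.85 within sets 1 and 2. Without Venus-low replicate 3, which is in neither comparison but enters the shared spread, the adjusted p values without the set term were 0.0268 and 0.0230 (limma). PD1-intermediate against PD1-low Th differed by 1.55 ± 0.61 (limma, adjusted p = 0.313).

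The other kept Tcf4 probe sets were dimmer, and none placed all arrays of the CXCR5+ gates above all arrays of the other groups. Some of the overlaps given here are between arrays of different sets. The 1416724_x_at probe set averaged 5.96 in Venus-high Tfh, 5.82 in Venus-low Tfh and 4.37 in naive cells, and differed by 0.14 ± 0.50 between the Tfh groups (limma, adjusted p = 1.00). On that probe set PD1-intermediate Th averaged 6.03 and PD1-low Th 5.11, with PD1-low replicate 2 at 5.39, above Venus-high replicate 1 at 5.15. The 1424089_a_at probe set moved with the array set. It read between 5.54 and 7.22 on all 5 arrays of set 3 and between 3.01 and 3.21 on the 7 others, whatever the group. On 1434148_at naive cells had the lowest mean, 4.27, but naive replicate 2 read 4.99, above Venus-high replicate 1 at 4.06. On 1434149_at naive replicate 1 read 5.60, above Venus-low replicate 1 of the same set at 4.75. Its means were 4.35 in naive cells, 4.19 in Venus-low Tfh and 5.03 in Venus-high Tfh. The genes most like the main probe set over the 12 arrays were Luzp1, Dubr, Pign, Cep43 and Hmces, with r of 0.964 to 0.931.

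Tcf4 is also known as a factor of plasmacytoid dendritic cells and B cells, so their markers were read beside it. Of 7 measured B cell markers, Cd79a, Ms4a1 and Blnk were below log2 5 on all arrays. The summed B cell marker signal ranged from 12.20 to 13.03 in Venus-high Tfh, 10.76 to 12.32 in Venus-low Tfh, 9.59 to 10.28 in PD1-intermediate Th, 8.18 to 9.11 in PD1-low Th and 7.66 to 7.76 in naive cells. Cd22, a B cell surface receptor, averaged 12.51, 11.52, 9.72, 3.98 and 2.78 in the same groups and carries the sum in the first 3 of them. The other 3 B cell markers above log2 5 on any array do not follow its order. Cd79b, a chain of the B cell receptor, averaged 3.20 in Venus-high Tfh, 5.05 in Venus-low Tfh, 6.67 in PD1-intermediate Th, 7.41 in PD1-low Th and 2.71 in naive cells. Ebf1 and Pax5, factors of B cell identity, averaged 5.33 and 3.26 in Venus-high Tfh and had their highest means, 7.22 and 3.88, in naive cells. Pax5 was nearly as high in PD1-low Th, at 3.86. Naive cells have no array in set 3, and with the set term these differences mostly went. Venus-high Tfh minus naive cells was then -0.45 ± 0.37 for Ebf1 and -1e-04 ± 0.11 for Pax5 (SE). Of 6 measured plasmacytoid dendritic cell markers, Siglech and Cox6a2 were below log2 5 on all arrays. The summed signal overlapped between Venus-high Tfh, 9.03 to 12.58, and naive cells, 9.66 to 12.37. Ccr9, which ran from 2.47 to 12.15 over the arrays, weighs on this sum. Irf8 averaged 8.71, 7.91, 8.49, 7.07 and 4.48 in the same groups, highest in Venus-high Tfh like Tcf4. Spib averaged 4.33 in Venus-high Tfh and 2.11 to 2.52 in the others. Bst2 went otherwise, at 9.64 in Venus-high Tfh and highest, 11.54, in PD1-low Th. Of 7 measured myeloid markers, 6 were below log2 5 on all arrays, and the summed signal, carried by Cd68, was 8.91 to 9.33 in Venus-high Tfh, 8.22 to 8.88 in Venus-low Tfh, 6.66 to 7.12 in PD1-intermediate Th, 5.70 to 6.32 in PD1-low Th and 5.46 to 5.49 in naive cells. Cd22, Cd68 and Ascl2 thus share their order over the first 3 groups, and the part of any other cell type in the Ascl2 and Tcf4 values was not tested.

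Tcf12, which encodes HEB, was bright in every group and differed little on its main probe set. Its main probe set, 1427670_a_at, read 11.71, 12.68 and 12.94 in Venus-high Tfh and 11.75, 12.30 and 12.94 in Venus-low Tfh. It read 13.07 and 12.94 in PD1-intermediate Th, 12.33 and 12.92 in PD1-low Th, and 11.75 and 12.23 in naive cells. On this probe set the arrays ordered by set rather than by group: set 1 held the 3 lowest values and set 3 the 5 highest. The dimmer 1421908_a_at did not, with set 1 at 8.33 to 8.35. On 1439209_at and 1439619_at, Venus-low Tfh lay below PD1-intermediate Th without overlap, by -0.95 ± 0.45 and -0.65 ± 0.28. Neither passed when all probe sets were tested (limma, adjusted p = 0.629 and 0.595). None of the 6 comparisons passed with or without the set term, and the F test gave adjusted p values of 0.662 without it and 0.724 with it (limma). Between the Tfh groups the difference was 0.11 log2 units, with a 95% interval of -0.81 to 1.03 without the set term and -0.16 to 0.39 with it. The genes most like Tcf12 were Nceh1, 0610040B10Rik, Mier3, Psmb9 and Psme3ip1, with r of 0.990 to 0.986.

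Tcf3, which encodes E2A, was close to background in all groups. The 1426297_at probe set read 3.25, 5.08 and 3.17 in Venus-high Tfh, 3.25, 4.59 and 3.78 in Venus-low Tfh, 3.40 and 3.40 in PD1-intermediate Th, 4.58 and 3.70 in PD1-low Th, and 4.00 and 5.62 in naive cells. Only Venus-high replicate 2 and naive replicate 2, both of array set 2, reached log2 5, and the other 2 Tcf3 probe sets were below it on all arrays. Venus-high Tfh against naive cells differed by -0.97 ± 0.71 (limma, adjusted p = 0.525), and by -0.83 ± 0.24 with the set term (limma, adjusted p = 0.0292). No fold is given, because most values on both sides are background. The genes most like it, Creb5, Gm8709, Ncan, 2310067E19Rik and Gm14133, with r of 0.943 to 0.931, averaged between 2.10 and 6.11 in every group.

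Id2, the inhibitor known for type 1 effector T cells and innate lymphocytes, was bright in all groups. Its main probe set, 1435176_a_at, read 10.20, 10.84 and 12.39 in Venus-high Tfh and 10.90, 11.64 and 12.18 in Venus-low Tfh. It read 11.89 and 11.93 in PD1-intermediate Th, 10.41 and 11.49 in PD1-low Th, and 10.33 and 11.00 in naive cells. The Venus-high and Venus-low ranges overlapped, and the group means ran from 11.91 in PD1-intermediate Th through 11.58, 11.14 and 10.95 in Venus-low Tfh, Venus-high Tfh and PD1-low Th to 10.67 in naive cells. Each pair of neighbours in this order overlapped. PD1-intermediate against PD1-low Th, whose arrays did not overlap, differed by 0.96 ± 0.72 (limma, adjusted p = 0.783).

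Between Venus-high and Venus-low Tfh, Id2 differed by -0.44 ± 0.59 log2 units, with a 95% interval of -1.77 to 0.89 (limma, adjusted p = 1.00). Within sets 1, 2 and 3 the differences were -0.71, -0.81 and 0.20, so 2 of 3 pairs were lower in Venus-high Tfh. A dimmer probe set, 1422537_a_at, gave -0.55, -1.83 and -0.10 in the same sets, lower in Venus-high Tfh in 3 of 3. Neither probe set passed with the set term, at adjusted p values of 0.159 for the main probe set and 0.162 for the dimmer one tested among all probe sets (limma). No comparison of Id2 passed with or without that term, and its F test passed narrowly with it (limma, adjusted p = 0.0492) but not without it (limma, adjusted p = 0.700). The genes most like Id2 over the 12 arrays were Mlf2, Mtch2, Psmb7, Ndufaf2 and Cab39, with r of 0.966 to 0.958.

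Id3, the inhibitor known to restrain Tfh development, has 1 probe set here, 1416630_at. It read 8.42, 10.43 and 10.91 in Venus-high Tfh and 8.47, 10.88 and 10.93 in Venus-low Tfh. It read 11.04 and 11.06 in PD1-intermediate Th, 10.07 and 10.69 in PD1-low Th, and 7.25 and 9.59 in naive cells. Array set separated these values more than group did: relative to set 1, Id3 was 2.21 higher in set 2 and 2.57 higher in set 3, where the median absolute shift over all genes was 0.45 and 0.75.

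Between Venus-high and Venus-low Tfh, Id3 differed by -0.17 ± 0.90 (limma, adjusted p = 1.00). Within sets 1, 2 and 3 the differences were -0.05, -0.46 and -0.02, and with the set term the 95% interval was -0.47 to 0.13. Against naive cells, Venus-high Tfh differed by 1.50 ± 1.01 (limma, adjusted p = 0.479) without the set term and by 1.01 ± 0.15 with it, 2.02-fold, which passed (limma, adjusted p = 0.00166). The difference was 1.18 within set 1 and 0.83 within set 2, higher in 2 of 2 sets. In the fit with the set term Id3 was also 1.19 ± 0.15 higher than naive in Venus-low Tfh, 1.16 ± 0.19 in PD1-intermediate Th and 0.67 ± 0.17 in PD1-low Th. The last of these did not pass (limma, adjusted p = 0.178), and the other 2 were not among the comparisons tested. The genes most like Id3 were Uqcr11, Cst3, Pold4, Gabarap and Bak1, with r of 0.982 to 0.975.

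Regulatory T cells and cytotoxic lymphocytes also express Id genes, so their markers were read beside Id2 and Id3. Foxp3, the defining factor of regulatory T cells, averaged 6.00 in Venus-high Tfh, 11.00 in Venus-low Tfh, 11.19 in PD1-intermediate Th, 11.93 in PD1-low Th and 9.18 in naive cells. Il2ra and Ikzf4 were also lower in Venus-high than in Venus-low Tfh, at 4.13 against 9.01 and 3.44 against 8.45. Ikzf2, Nrp1 and Ctla4 were close, at 13.38, 13.35 and 11.95 against 13.38, 13.20 and 11.77. The summed regulatory T cell marker signal, carried in the Tfh groups by Ikzf2 and Nrp1, overlapped between Venus-high Tfh, 14.14 to 15.14, and Venus-low Tfh, 14.20 to 15.19. It was 14.55 to 14.68 in PD1-intermediate Th, 13.84 to 15.23 in PD1-low Th and 10.75 to 11.25 in naive cells. Of 7 measured NK and CD8 T cell markers, Cd8a and Ncr1 were below log2 5 on all arrays, and the summed signal was 7.37 to 10.40 in Venus-high Tfh, 8.30 to 10.64 in Venus-low Tfh, 10.79 to 10.93 in PD1-intermediate Th, 10.91 to 12.12 in PD1-low Th and 9.83 to 10.01 in naive cells. Different markers carry this sum: Prf1 averaged 10.23 in PD1-intermediate Th, and Klrd1 11.15 in PD1-low Th and 9.59 in naive cells. Gzma went otherwise, at 7.45 in Venus-high Tfh, 8.76 in Venus-low Tfh, 7.78 in PD1-intermediate Th and 4.94 in PD1-low Th. The sum is therefore not 1 shared signal. Both PD1-intermediate arrays lie above every PD1-high and naive array in it. Without the set term that group also has the highest Id2 and Id3 means, 11.91 and 11.05. Both its arrays are in set 3, where Id2 read higher in Venus-high and Venus-low Tfh, at 12.39 and 12.18. With the set term its Id2 was -0.15 relative to naive, against 0.0044 and 0.44 in these 2 Tfh groups. Its Id3 was then 1.16, against 1.01 and 1.19. PD1-low Th reached the highest sum, 12.12, with an Id2 mean of 10.95. The part of regulatory and cytotoxic cells in the Id values was not tested.

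The other Id genes were below log2 5 throughout. The Id1 probe set read between 2.24 and 2.76, and the 3 Id4 probe sets between 2.08 and 2.57.

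**Figure D3:**
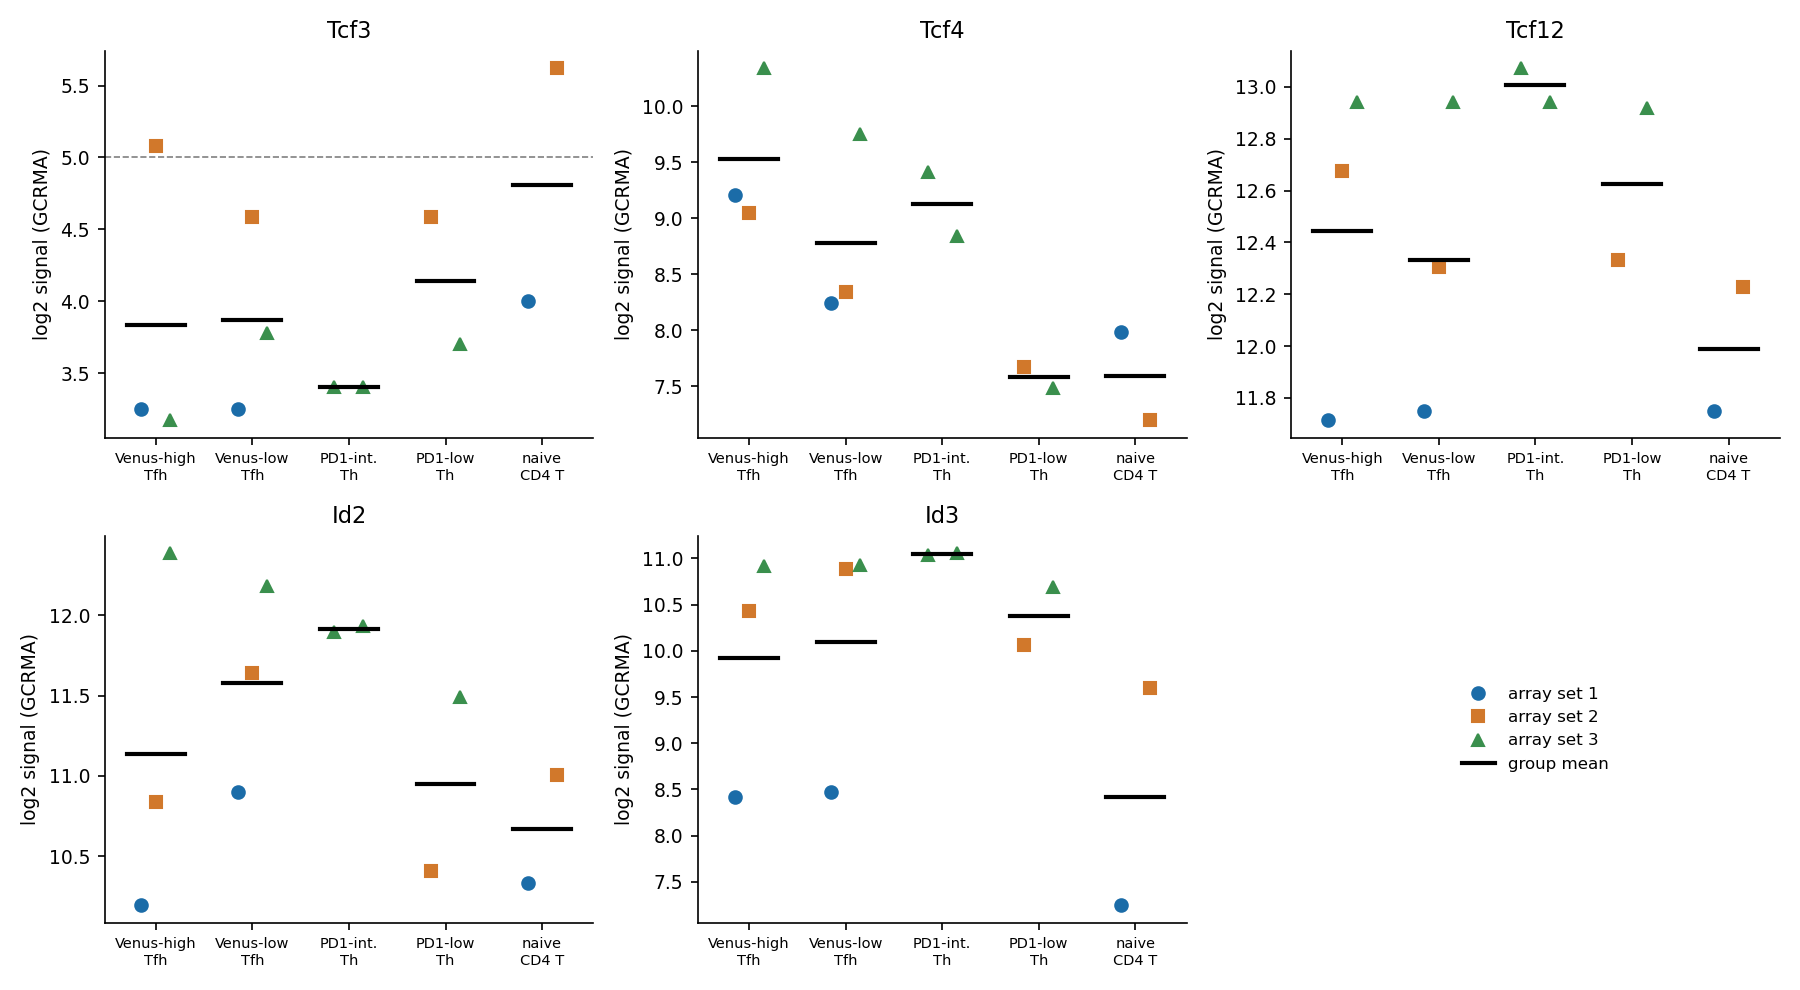
Log2 GCRMA signal of the main probe set of Tcf3, Tcf4, Tcf12, Id2 and Id3 on each of the 12 arrays by sorted group, with marker shape and colour for the array set and a bar for the group mean. Tcf4 is higher on the 8 arrays of the CXCR5+ gates than on the 4 others, while Tcf12 and Id3 follow the array set, and Tcf3 lies near the dashed line at log2 5.

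Over the 6 members together, Venus-high Tfh against PD1-low Th gave 1 of 6 called without the set term, where 11.3% of all genes passed, and 2 of 6 with it, where 34.7% did. Against naive cells, Venus-high Tfh gave 1 of 6 without the term (13.7% of all genes) and 4 of 6 with it (41.1%), the 4 being Ascl2, Tcf3, Tcf4 and Id3. PD1-intermediate against PD1-low Th gave 0 of 6 in both fits, where 4.01% and 12.8% of all genes passed, with Tcf4 alone at an unadjusted p under 0.05 without the set term and Id3 alone with it (limma). PD1-low Th against naive cells gave 0 of 6 in both fits, where 0.0809% and 0.566% passed, with 0 members at an unadjusted p under 0.05 without the term and 2, Tcf3 and Id3, with it (limma). With the set term the F test called 4 of 6 members, Ascl2, Tcf4, Id2 and Id3, where it called 46.3% of all genes. With 6 members, none of these counts is read as a difference from the shares over all genes.

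**Figure D4:**
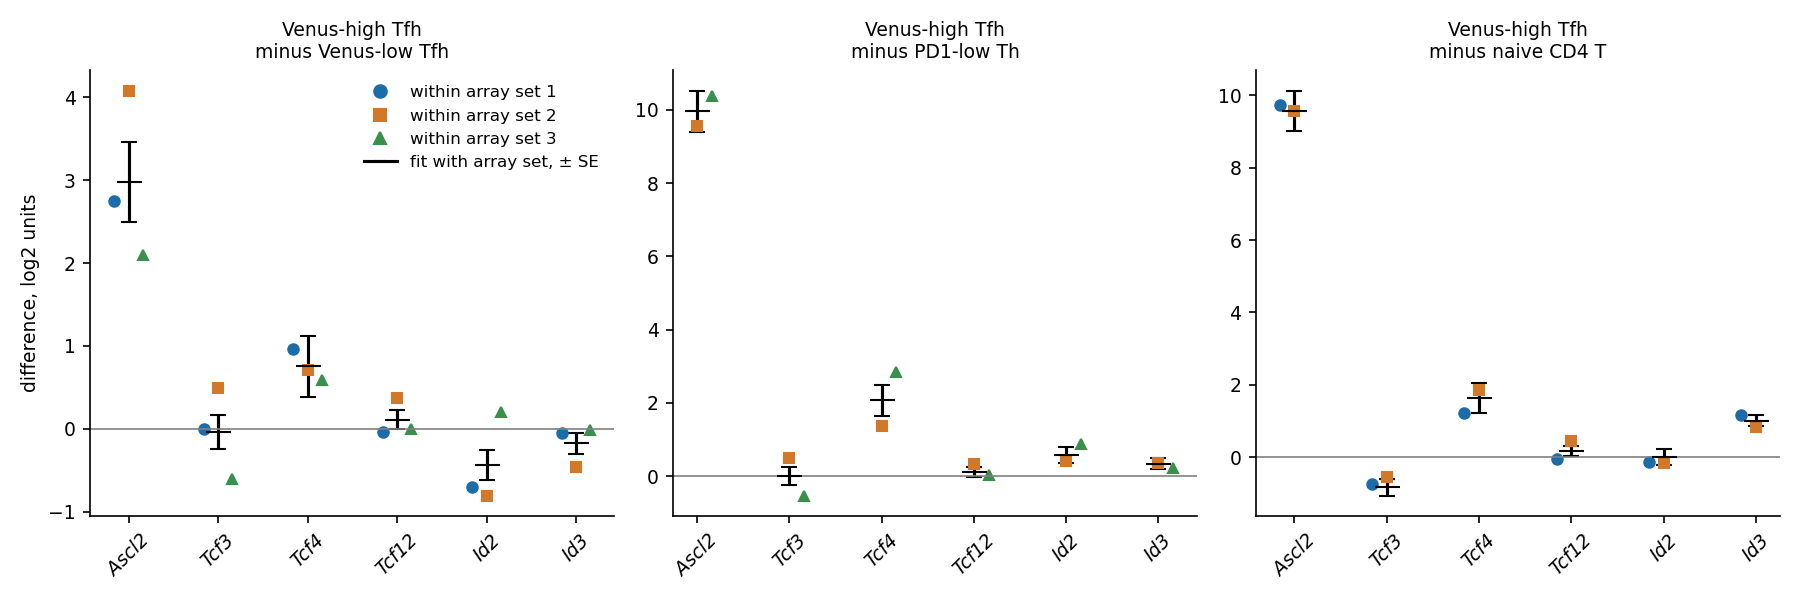
Difference in log2 units for the 6 members in Venus-high Tfh minus Venus-low Tfh, PD1-low Th and naive CD4 T cells, with coloured points for single array sets and a black mark with bars for the estimate ± SE of the fit with the set term. The scales of the panels differ. Ascl2 and Tcf4 are above 0 in every set shown, and Tcf12 and Id3 stay within 0.5 of 0 between the Tfh groups.

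The members' own likeness also changed with the array set. Over the 12 arrays, r was 0.79 for Id2 with Id3, 0.90 for Tcf12 with Id3 and 0.82 for Tcf12 with Id2. After subtracting each set's mean, r was 0.45, 0.23 and -0.13 for these pairs. Ascl2 and Tcf4 gave r of 0.68 over the 12 arrays and 0.83 after subtracting set means. These are descriptions over 12 arrays that share groups.

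The balance of activators to inhibitors was read as the mean log2 signal of Ascl2, Tcf3, Tcf4 and Tcf12 minus the mean of Id2 and Id3 on each array, relative to the naive mean. Signals of different probe sets have no common scale, so only its change between groups can be read, and no test was run on it. It was 2.63, 1.89 and 0.97 in Venus-high Tfh and 1.33, -0.16 and 0.55 in Venus-low Tfh. It was -1.42 and -1.76 in PD1-intermediate Th, -0.66 and -1.65 in PD1-low Th, and 0.61 and -0.61 in naive cells. The Venus-high values overlapped the Venus-low values and lay above those of the 3 other groups, and naive cells spread by more than 1 log2 unit between their 2 arrays.

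The group means of this ratio were 1.83 ± 0.83 in Venus-high Tfh and 0.58 ± 0.75 in Venus-low Tfh (SD, n = 3 each), and -1.59 ± 0.25 in PD1-intermediate Th and -1.15 ± 0.70 in PD1-low Th (SD, n = 2 each), with naive cells at 0 ± 0.86 by construction of the mean. Venus-high minus Venus-low Tfh was 1.30, 2.05 and 0.43 within sets 1, 2 and 3. With the set term the means relative to naive were 2.13 in Venus-high Tfh, 0.87 in Venus-low Tfh, -0.70 in PD1-intermediate Th and -0.45 in PD1-low Th. Ascl2 was at background outside the PD1-high gates, so its part of the ratio there is a bound. With values under log2 5 set to 5, the means were 1.36, 0.09, -1.38 and -1.04 in these 4 groups.

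Without Ascl2, the ratio of the 3 E proteins to Id2 and Id3 no longer stood above naive in the Tfh groups. Its means relative to naive were -0.51 ± 0.81 in Venus-high Tfh, -1.09 ± 0.50 in Venus-low Tfh (SD, n = 3 each), -1.55 ± 0.19 in PD1-intermediate Th and -1.13 ± 0.72 in PD1-low Th (SD, n = 2 each). With the set term they were -0.18, -0.76, -0.56 and -0.45. Within sets, Venus-high minus Venus-low Tfh was 0.69, 1.16 and -0.10, and Venus-high minus naive was -0.37 and 0.25 in sets 1 and 2, so the sign was not the same in all sets. The positive mean ratio of the Tfh groups against naive cells was thus not kept without Ascl2. The ratio of the 3 E proteins includes Tcf3, whose values are mostly background. Tcf4 alone over Id2 and over Id3 was 1.47 and 0.44 relative to naive in Venus-high Tfh. In Venus-low Tfh it was 0.28 and -0.49, where the naive arrays had an SD of 1.03 and 2.22. Tcf12 over Id2 and over Id3 was -0.02 and -1.05 in Venus-high Tfh.

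The ratio was also read for single pairs of genes, from the main probe set of each, with bounds between group means. With Ascl2 in naive cells taken at log2 5, Ascl2 over Id2 was at least 6.80 log2 units above naive in Venus-high Tfh and at least 3.39 in Venus-low Tfh. Ascl2 over Id3 was at least 5.77 above naive in Venus-high Tfh and at least 2.62 in Venus-low Tfh. Venus-high minus Venus-low Tfh within sets 1, 2 and 3 was 3.46, 4.89 and 1.89 for Ascl2 over Id2, positive in 3 of 3. Tcf4 over Id2 gave 1.67, 1.51 and 0.39 and Tcf4 over Id3 gave 1.01, 1.16 and 0.61 in the same pairs, also positive in 3 of 3. Tcf12 over Id2 gave 0.67, 1.18 and -0.20, with 1 of 3 pairs below 0. Id3 over Id2 was above naive in the 4 other groups, by 1.03 in Venus-high Tfh, 0.77 in Venus-low Tfh, 1.38 in PD1-intermediate Th and 1.67 in PD1-low Th, where the naive arrays themselves differed by an SD of 1.18.

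**Figure D5:**
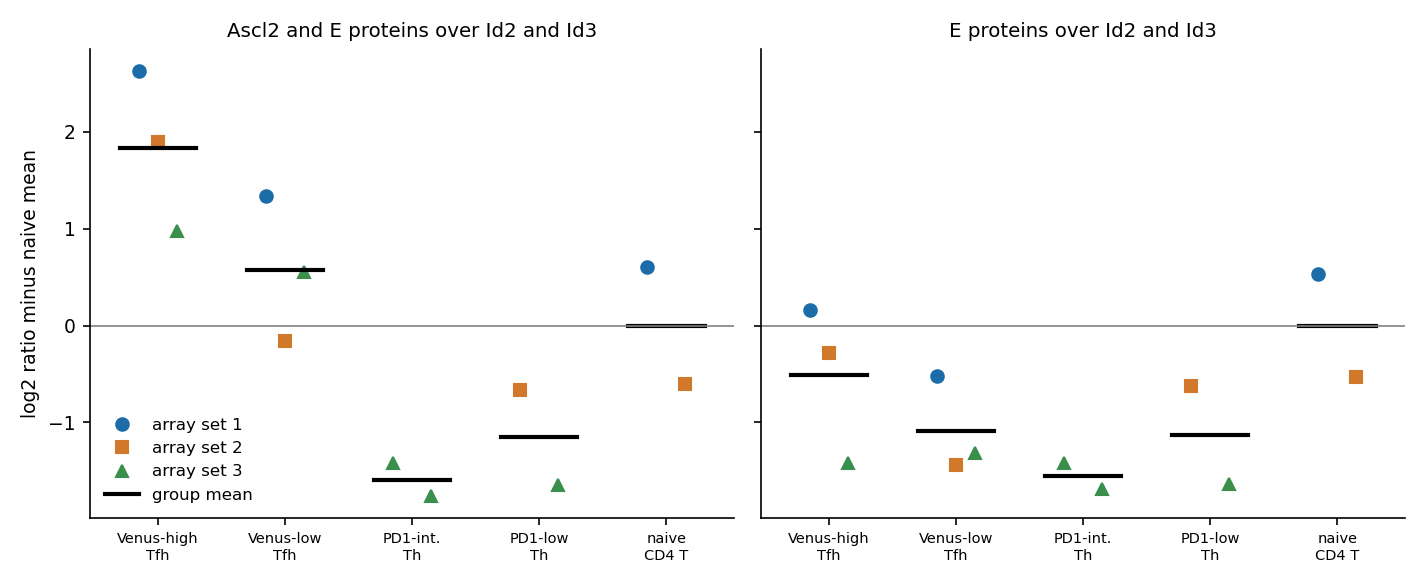
Log2 ratio per array, minus the mean of the naive arrays, for all 4 activators over Id2 and Id3 (left) and for the 3 E proteins alone over Id2 and Id3 (right), with marker shape and colour for the array set and a bar for the group mean. On the left Venus-high Tfh averages 1.83 above naive, and on the right it averages -0.51.

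Other genes of the network were read from lists. Of 16 cofactor and bHLH partner genes, 6 were tested, and of these 1 rose in Venus-high against Venus-low Tfh and 3 rose against naive cells, with none falling. The set term left these counts the same, except that Ldb1 fell against naive cells. Over all genes, 0.435% were called higher and 0.879% lower in Venus-high against Venus-low Tfh, and 9.48% higher and 4.23% lower against naive cells. These shares with the set term were 7.47% and 9.42% between the Tfh groups and 20.2% and 20.9% against naive cells. Genes named below for a call with the set term alone were picked after their values were seen. The median difference of the 6 tested partner genes was 0.11 between the Tfh groups, against 0.02 over all genes. Against naive cells it was 2.03, against 0.18 over all genes. Cbfa2t3, a corepressor of the ETO family that E proteins recruit, averaged 11.97 in Venus-high Tfh and 8.46 in Venus-low Tfh, a difference of 3.51 ± 0.46 (limma, adjusted p = 0.0110). It differed by 3.31, 3.63 and 3.58 within sets 1, 2 and 3, and was at least 125.3-fold higher in Venus-high Tfh than in naive cells (limma, adjusted p = 2.58e-05). Against naive cells, Bhlhe40, a bHLH repressor induced by T cell activation, rose at least 46.5-fold (limma, adjusted p = 0.000374). Lyl1, a class II bHLH factor that pairs with E proteins, was at least 2.31-fold higher (limma, adjusted p = 0.00422).

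Of 5 zinc finger repressors that bind E-boxes, 3 were tested, with no call between the Tfh groups and 1 rise, of Snai2, by at least 3.37-fold in Venus-high Tfh against naive cells (limma, adjusted p = 0.000145). The set term again gave no call between the Tfh groups, and against naive cells Snai2 and Zeb2 rose and Zeb1 fell. Of 14 genes known as E protein targets in lymphocytes, 9 were tested. Between the Tfh groups 1 fell, Il7r, the receptor of the survival cytokine IL-7, which averaged 8.13 in Venus-high Tfh and 11.40 in Venus-low Tfh (difference -3.27 ± 0.38, limma, adjusted p = 0.00715). Il7r fell and Cdkn1a rose with the set term. Against naive cells 3 rose and 1 fell, Il7r at -6.40 ± 0.43 (limma, adjusted p = 2.58e-05). Those that rose were Cdkn1a, a cell cycle inhibitor, by at least 19.9-fold (limma, adjusted p = 0.000868), Gfi1, a transcriptional repressor, and Cxcr5, whose call was fixed by the CXCR5 gate of the sort. Under the set term 4 rose, these and Cd4, also a gate gene, and 3 fell, Il7r, Foxo1 and Socs3. The median difference of these 9 genes was 0.17 between the Tfh groups and -0.22 against naive cells, against 0.02 and 0.18 over all genes.

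Of 9 genes reported to respond to Ascl2 in T cells, 7 were tested. Ccr7, the receptor that holds T cells in the T zone, averaged 3.71 in Venus-high Tfh and 8.94 in Venus-low Tfh, at least 15.4-fold lower (limma, adjusted p = 0.00127), and was the 1 of 7 called between the Tfh groups. The set term gave 3 of 7 that fell, Selplg (limma, adjusted p = 0.0109) and Il2ra (limma, adjusted p = 0.00727) being the others. Against naive cells 2 rose and 2 fell, or 2 and 3 with the set term, with Ccr7 at least 311.8-fold lower in Venus-high Tfh (limma, adjusted p = 4.14e-06). Cxcr5 was at least 616.7-fold higher, but CXCR5 was a gate of the sort, so its level is no finding. Ifng, the signature cytokine of type 1 helper cells, rose at least 15.5-fold in that comparison (limma, adjusted p = 0.00515). The median difference of the 7 genes was -1.28 between the Tfh groups, against 0.02 over all genes. No direction of the reported response was set for these genes, Ifng among them. This median and these rises and falls are thus a description and do not measure a response to Ascl2.

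Of 10 genes of the Egr, BMP and TGF-beta pathways that induce Id genes, 9 were tested. None was called between the Tfh groups without the set term and 1, Tgfbr2, rose with it. Egr2, a factor induced by the T cell receptor, averaged 13.55 in Venus-high Tfh and 10.48 in naive cells, a difference of 3.07 ± 0.35 (limma, adjusted p = 0.000542), and was the 1 gene called there without the set term. With it 4 rose, Egr1, Egr2, Egr3 and Smad3, and 1 fell, Smad5. Of 8 Wnt and TCF/LEF genes 3 were tested, and Lef1, a factor of naive T cells, was the 1 called in Venus-high Tfh against naive cells, at -1.99 ± 0.48 (limma, adjusted p = 0.0237). Lef1 and Ctnnb1 fell with the set term against naive cells and Lef1 and Axin2 fell between the Tfh groups, where none was called without it.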

How the data were processed

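The 12 arrays held RNA from pools of sorted cells in 5 groups, taken from the labels. Values were deposited as log2 signal for each probe set, computed by the authors with GCRMA, per the submitters' processing notes. No version is given in the sources used here, and neither is which arrays were normalized together. Of 45101 probe sets, 34958 had 1 gene symbol in the platform annotation, 932 had several and 9211 none. Scanner files and detection calls were not used here.

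Probe sets reaching log2 5 on at least 2 arrays were kept (17901). Each gene was represented by its kept probe set of highest mean, giving 9893 genes. One fit of all arrays in limma 3.58.1 (R 4.3.3), with 7 residual degrees of freedom, gave 2-sided moderated tests of 6 comparisons, adjusted by Benjamini-Hochberg over all genes and called under 0.05. The procedure was tested on simulated data. Array sets are clusters of the arrays' quantiles, cut at 3. As a term they leave 5 residual degrees of freedom. A fold against a group below log2 5 on all its arrays is a lower bound at log2 5, between group means of the probe set used. Same-numbered Tfh arrays deviated together from their group means (correlations 0.914, 0.945 and 0.915), which is the basis of the replicate block. These arrays also share an array set, so a pairing of pools and the set cannot be told apart.

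Named genes were the 6 members, Id1 and Id4, up to 3 genes past the threshold with the largest difference per list in each of the comparisons of Venus-high with Venus-low Tfh and with naive cells, and the 5 genes with the highest r with each member. Other genes named are markers from lists. The members and lists were chosen with earlier results of these data known. Alternatives changed the filter, floor, normalization, arrays in the fit, block, array set, probe set and each array. Promoters are from RefSeq on GRCm38.p6, which held 5 of the 6 members, and 3 are shown. Figures were drawn with matplotlib 3.10.9 in Python 3.11.15.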

Additional observations from a re-analysis of the deposited data

How the results depend on the processing

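Of 936 alternative values over 6 genes and 6 comparisons, 851 kept their direction and side of the threshold, 29 passed newly, 4 no longer passed, 48 changed sign where neither value passed, and 4 became 0 once values under log2 5 were set to 5. For Venus-high against Venus-low Tfh, 1 member passed instead of 0 with values under log2 5 set to 5, quantile normalization, the replicate block on all 12 arrays, the array set as a fixed term or a random block, the mean of a gene's probe sets, displaced probe sets left out, or each probe set on its own, and 2 passed with the replicate block on the 6 Tfh arrays. For Venus-low Tfh against PD1-intermediate Th, 0 passed with the 2 groups alone and without array set 2 (chosen after seeing the data, Ascl2 adjusted p = 0.0757, limma), and 3 passed with the replicate block. Under that block PD1-intermediate against PD1-low Th gave 1, and the F test, PD1-low Th and naive comparisons with Venus-high Tfh gave 2 each. Quantile normalization also gave 2 for these 3, leaving out displaced probe sets gave 2 for the comparisons with PD1-low Th and naive cells, and the set as a fixed term gave 4, 2 and 4 and as a random block 3, 2 and 4 for the F test, PD1-low Th and naive cells. Leaving out each array in turn gave 0 to 1 members for Venus-high against Venus-low Tfh (1 without Venus-low replicate 3, Ascl2 adjusted p = 0.0226, limma) and for Venus-low Tfh against PD1-intermediate Th, 1 to 2 for Venus-high Tfh against PD1-low Th and against naive cells, 1 for the F test, and 0 for the others. The ratio against naive, left out array by array, ran from 1.23 to 2.44 in Venus-high Tfh, -0.030 to 1.18 in Venus-low Tfh (below 0 without naive replicate 2), -2.20 to -0.98 in PD1-intermediate Th and -1.76 to -0.55 in PD1-low Th. Without Ascl2 it was -0.51 in Venus-high and -1.09 in Venus-low Tfh. With the mean of a gene's probe sets it was -0.066 in Venus-low Tfh and -2.16 in PD1-intermediate Th, and with quantile normalization -1.28 in PD1-intermediate Th. In PD1-intermediate and PD1-low Th it was -2.28 and -1.99 over Id3 alone, -0.90 and -0.32 over Id2 alone, -0.70 and -0.45 with the set term, and -2.20 and -2.25 without array set 2. The causes were not tested. Where a group was left with 1 array, that array was assumed to vary like the other groups. Groups of 2 and 3 arrays limit the precision, and Tcf3 and, outside the PD1-high gates, Ascl2 were too close to background for a fold.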

Other observations

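Some deposited values of the members were exactly equal on different arrays of 1 set. Tcf12 probe set 1427670_a_at read 12.94 on both replicate 3 arrays of the Tfh groups, a difference of 0 to every digit deposited, and Tcf4 probe set 1424089_a_at differed by 0 between the replicate 1 arrays of these groups. Whether such values are independent readings was not tested.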
